A study of Mus musculus with 4 samples.

Results

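Interleukin-1 and inflammasome genes were followed through mouse bone marrow at single-cell resolution, with neutrophils set against monocytes. The members are 10 genes listed by name among the 31053 genes of the count matrices. They are Il1b, Il1a and Il18, which encode cytokines, Il1rn and Il1r2, which encode inhibitors of interleukin-1, Nlrp3, Pycard and Casp1, which encode inflammasome subunits, and Tnf and Ptgs2, which encode another inflammatory cytokine and the prostaglandin-making enzyme COX-2. All 10 had at least 1 UMI (unique molecular identifier, a tag that marks each captured mRNA molecule) in each of the 4 libraries. In the tests across libraries 9 of the 10 passed the filter on low counts, and Il1a did not.

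Interleukin-1β and interleukin-18 are made as inactive precursors. In an inflammasome the sensor NLRP3 gathers the adaptor ASC, the product of Pycard, which gathers caspase-1, and caspase-1 cuts both precursors and the pore protein gasdermin D. The product of Il1rn occupies the interleukin-1 receptor without signaling, and the product of Il1r2 binds the cytokine as a decoy. In bone marrow, interleukin-1 is known for pushing stem and progenitor cells toward myeloid output. miR-146a is known for restraining the signaling below interleukin-1 and Toll-like receptors through Irak1 and Traf6.

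Total marrow of femur and tibia was depleted of red cells and profiled by 10x Genomics 3′ chemistry, with 1 library per genotype. The DKO library came from C57/B6 mice that are mDia1-/- and miR146a-/- with IL6+/+, and the TKO library from mice that lack all 3 genes by label. The IL-6 KO library came from IL6-/- mice with mDia1+/+ and miR146a+/+, and the TWT library from mice with the normal alleles of all 3 genes. All mice were 12 months old, the alleles are constitutive and so are missing from every cell, and the sources used here do not say how many mice were pooled. With 1 library per genotype nothing was tested between genotypes, and intervals between libraries are exact 95% intervals for counting error only.

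Libraries held 61292684 to 85145074 UMIs. Barcodes with between 500 and 4000 genes detected and no more than 15% of UMIs from mitochondrial genes were kept, which left 9627 DKO, 7560 TKO, 7476 IL-6 KO and 6794 TWT cells, 31457 of 36942 barcodes. Diaph1, the gene of mDia1, had 11.4 CPM (counts scaled to 1000000 UMIs) in DKO and 12.4 in TKO, against 178 in IL-6 KO and 163 in TWT. Il6 had 587 UMIs in the library labelled TKO and 606 in the library labelled IL-6 KO, against 20 in DKO and 52 in TWT. The altered allele is not described in the sources used here and a 3′ tag may lie outside it, so Il6 gives no check of the labels, and TKO and IL-6 KO name the libraries with those labels. The IL-6 KO library also differs in sex, with 49030 Xist UMIs against 1 to 7 in the others. Pairs of libraries shared 19 to 36 barcodes, and 2.06% to 2.61% of barcodes were called doublets and not removed.

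Each kept cell was put in the class with the highest marker score, the mean log level of its marker genes scaled to high cells, with no member among the markers, and 5.83% of cells stayed ungated. Mature neutrophils were gated by Csf3r, Cxcr2, Mmp8, Mmp9, Retnlg and Asprv1, immature neutrophils by granule genes such as Camp, Ngp and Ltf, and classical monocytes by Ccr2, Csf1r, F13a1, Ly86, Ms4a6c and Fn1. There were 1029 DKO, 2095 TKO, 2310 IL-6 KO and 1915 TWT mature neutrophils, and 2493, 2044, 1968 and 1732 immature neutrophils in the same order. Classical monocytes numbered 2124 in DKO, 615 in TKO, 550 in IL-6 KO and 569 in TWT. Every marker was detected in its own class, and 2 to 6 own markers and no marker of another class stood among the 10 genes of highest fold in neutrophil, monocyte and macrophage gates. When the cells were clustered instead, DKO cells lay largely apart, and 1806 of the 1810 cells of the largest monocyte cluster and 872 of the 981 cells of a mature neutrophil cluster came from DKO. The cells of each gate fell in clusters of the same name for 90.0% of mature neutrophils, 92.4% of immature neutrophils and 93.4% of classical monocytes.

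Il1b, the precursor gene of interleukin-1β (ENSMUSG00000027398, GRCm38 chr2:129364570-129371139, minus strand), was at its highest CPM in mature neutrophils in every library, among classes of at least 50 cells. Mature neutrophils had 360.4 CPM in DKO, 771 in TKO, 816 in IL-6 KO and 808 in TWT. Classical monocytes had 123 CPM in DKO but only 13.1 in TKO, 14.5 in IL-6 KO and 9.39 in TWT. The 2 classes did not overlap in any library, and the DKO monocytes stood apart from the other 3 monocyte samples. Immature neutrophils had 24.5 CPM in DKO, 5.86 in TKO, 11.2 in IL-6 KO and 9.95 in TWT, far below the mature neutrophils of the same library.

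Neutrophils of both stages together were higher in Il1b than classical monocytes by 3.92 on the log2 scale (SE 1.08, n = 4 libraries, adjusted p = 0.0197, edgeR quasi-likelihood test with library as a block). Without TKO, IL-6 KO or TWT the call did not hold, with differences of 3.60, 3.51 and 3.38 and adjusted p of 0.0812, 0.0854 and 0.0834, and without DKO it was 5.02. Mature neutrophils alone were higher than monocytes by 6.10 (SE 1.004, adjusted p = 0.00115), and higher than immature neutrophils by 6.02 (SE 0.55, adjusted p = 3.54e-05). All p-values across genes were adjusted by the Benjamini-Hochberg method, and the 4 libraries that serve as replicates carry different genotypes.

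Il1a and Il18 are the other cytokine genes of the family. Il1a (ENSMUSG00000027399, chr2:129299610-129309972, minus strand), whose product is active without caspase-1, was close to undetected, with 1 UMI in all kept DKO cells, 4 in TKO, 2 in IL-6 KO and 3 in TWT. The only Il1a UMI of a neutrophil was in a DKO mature neutrophil, and no classical monocyte held any. Il18 (ENSMUSG00000039217, chr9:50554827-50581840, plus strand) ran the other way from Il1b, with 22.0 CPM in DKO, 18.0 in TKO, 7.35 in IL-6 KO and 15.4 in TWT classical monocytes. Mature neutrophils had 3.68 CPM in DKO, 3.79 in TKO, 4.08 in IL-6 KO and 3.81 in TWT, below the monocytes of each library, and immature neutrophils stayed under 1 CPM in all 4. Neutrophils were lower in Il18 than monocytes by 2.66 on the log2 scale (coded −2.66, SE 0.32, adjusted p = 0.000752). For mature neutrophils alone the difference of −0.95 (SE 0.32, adjusted p = 0.0282) missed the 2-fold size that a call required, and reached it without IL-6 KO (−1.30). The tests scale to a trimmed mean of genes. On CPM the log2 gap was −2.58 in DKO, −2.25 in TKO, −0.85 in IL-6 KO and −2.02 in TWT.

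Il1rn, the gene of the receptor antagonist (ENSMUSG00000026981, chr2:24336853-24351494, plus strand), had 20.2 CPM in DKO, 94.6 in TKO, 113 in IL-6 KO and 91.1 in TWT mature neutrophils. Classical monocytes had 4.88, 6.56, 4.90 and 1.25 CPM in the same order of libraries. Mature neutrophils thus stood above monocytes in all 4 libraries, by 4.84 on the log2 scale (SE 0.59, adjusted p = 0.00027), and the narrowest gap was in DKO. Il1r2, the decoy receptor gene (ENSMUSG00000026073, chr1:40074079-40125231, plus strand), had 342 CPM in DKO, 154 in TKO, 217 in IL-6 KO and 134 in TWT mature neutrophils. Monocytes had 22.5 CPM in DKO and 1.87, 4.46 and 1.67 CPM in TKO, IL-6 KO and TWT. The difference of mature neutrophils over monocytes was 6.25 (SE 0.49, adjusted p = 4.09e-05). Il1r1, the signaling receptor, was close to absent from both lineages, with at most 1 UMI in mature neutrophils of any library, while its partner Il1rap had 23.3 CPM in DKO, 28.1 in TKO, 31.2 in IL-6 KO and 34.7 in TWT mature neutrophils.

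**Figure D1:**
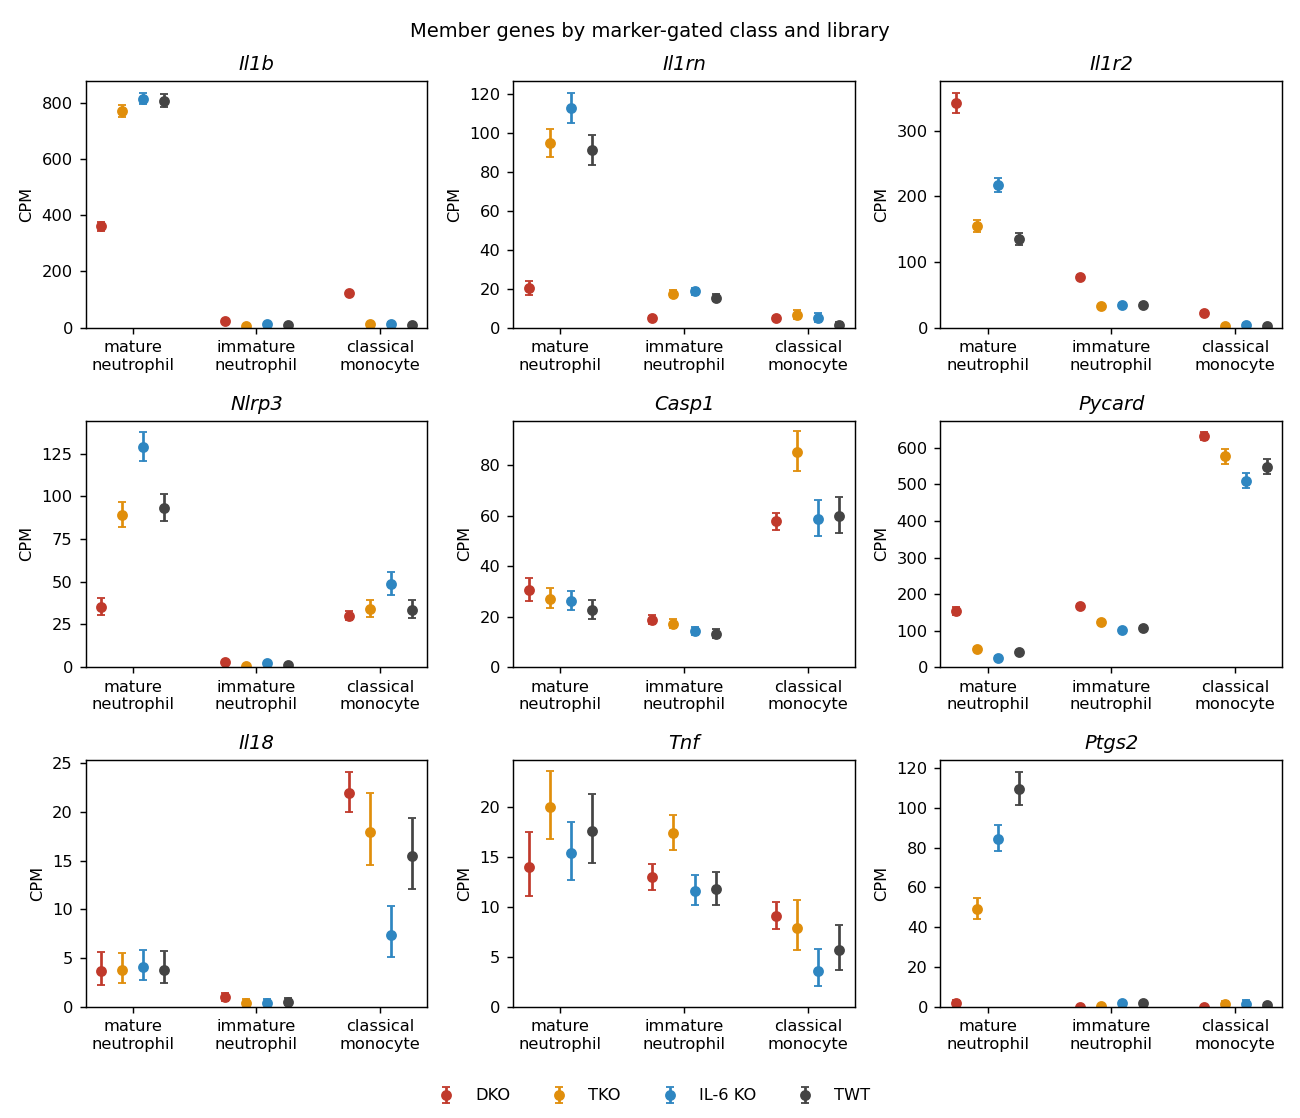
CPM of each member but Il1a (y axes differ between panels) in mature neutrophils, immature neutrophils and classical monocytes, with 1 point per library (DKO, TKO, IL-6 KO, TWT) and exact 95% Poisson intervals. Il1b, Il1rn, Il1r2 and Ptgs2 are highest in mature neutrophils and Pycard in classical monocytes, of the 3 classes, in each library, and DKO stands apart for Il1b at 360.4 CPM in mature neutrophils and 123 CPM in monocytes.

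The 3 inflammasome subunits did not share a pattern. Nlrp3, the sensor (ENSMUSG00000032691, chr11:59541568-59566956, plus strand), had 35.1 CPM in DKO, 89.1 in TKO, 129 in IL-6 KO and 93.2 in TWT mature neutrophils, and 30.2, 33.9, 48.6 and 33.6 CPM in classical monocytes in that order. Immature neutrophils had at most 3.04 CPM, in DKO. So Nlrp3 was higher in mature neutrophils than in immature neutrophils by 5.59 (SE 0.50, adjusted p = 3.35e-05) and than in monocytes by 2.14 (SE 0.26, adjusted p = 0.000286), while both neutrophil stages together differed from monocytes by 0.01 (SE 0.30, adjusted p = 0.982). The tested differences are relative to a trimmed mean of genes, and the CPM gaps of mature neutrophils over monocytes were smaller. On the log2 scale these gaps were 0.22 in DKO, 1.39 in TKO, 1.41 in IL-6 KO and 1.47 in TWT. In DKO, mature neutrophils and monocytes lay close, with intervals of 30.4 to 40.3 and 27.8 to 32.7 CPM.

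Pycard, the adaptor (ENSMUSG00000030793, chr7:127989708-127993867, minus strand), was highest in monocytes of the 3 classes in every library. Mature neutrophils had 153 CPM in DKO, 49.6 in TKO, 25.6 in IL-6 KO and 40.3 in TWT, against 633, 577, 510.1 and 549 CPM in classical monocytes. Immature neutrophils lay between at 101 to 167 CPM. Mature neutrophils fell below monocytes by 2.40 on the log2 scale (coded −2.40, SE 0.33, adjusted p = 0.000451) and below immature neutrophils by 1.03 (coded −1.03, SE 0.25, adjusted p = 0.00687), and the second of these was under 2-fold without IL-6 KO (−0.79), without TWT (−0.96), with DESeq2 (−0.98) or with Leiden clusters (−0.95). With no library block it was −0.74 (adjusted p = 0.212). Casp1, the protease (ENSMUSG00000025888, chr9:5298517-5307265, plus strand), had 30.5 CPM in DKO, 27.1 in TKO, 26.3 in IL-6 KO and 22.6 in TWT mature neutrophils and 57.8, 85.5, 58.8 and 60.1 CPM in monocytes. Its difference of −0.99 between all neutrophils and monocytes (SE 0.11, adjusted p = 0.000542) fell just short of 2-fold, and passed it without DKO (−1.03) or without IL-6 KO (−1.04).

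Ptgs2 (ENSMUSG00000032487, chr1:150100031-150108227, plus strand) was seen mainly in mature neutrophils, and in 3 of the 4 libraries. Mature neutrophils held 11 Ptgs2 UMIs in DKO (1.93 CPM), 337 in TKO (49.1 CPM), 622 in IL-6 KO (84.6 CPM) and 660 in TWT (109 CPM), against 0 to 1.56 CPM in monocytes. The difference of mature neutrophils over monocytes was 7.03 on the log2 scale (SE 0.34, adjusted p = 9.44e-06). Tnf (ENSMUSG00000024401, chr17:35199381-35202007, minus strand) was low, with 14.0 CPM in DKO, 19.98 in TKO, 15.4 in IL-6 KO and 17.6 in TWT mature neutrophils and 9.05, 7.87, 3.57 and 5.63 CPM in monocytes. It was higher in mature neutrophils than in monocytes by 2.35 (SE 0.28, adjusted p = 0.000247), and differed by 0.48 (SE 0.12, adjusted p = 0.00608) between mature and immature neutrophils, under 2-fold. Log2 CPM gaps of mature neutrophils over monocytes were smaller, at 0.63 in DKO, 1.34 in TKO, 2.11 in IL-6 KO and 1.64 in TWT.

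Counted over members, all neutrophils were higher than monocytes for 5 (Il1b, Il1rn, Il1r2, Ptgs2 and Tnf) and lower for 2 (Pycard and Il18) of the 9 tested, against 18.2% and 21.6% of the 11434 genes tested. Mature neutrophils were higher than monocytes for 6 of 9 and lower for 1, against 25.3% and 34.5% of 9879 genes. Mature neutrophils were higher than immature neutrophils for 6 of 9 (Il1b, Ptgs2, Nlrp3, Il18, Il1rn and Il1r2) and lower for Pycard, against 17.5% and 24.9% of 10027 genes. Fold changes are relative to a trimmed mean of genes, and when sums were scaled to library totals alone the median of all genes moved from near 0 to −0.83, −1.20 and −0.24 in the 3 comparisons, while no called member turned its direction.

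Promoter sequence is shown for 4 members with opposite patterns, Il1b and Ptgs2, which were higher in mature neutrophils than in monocytes, and Pycard and Il18, which had more CPM in classical monocytes than in neutrophils of either stage in every library. The windows are from RefSeq (GRCm38.p6), run 5′ to 3′ on the strand of the gene from 250 bases before to 50 bases after the start, and carry motif matches on either strand in capitals.
Il1b, chr2:129371090-129371389, minus strand: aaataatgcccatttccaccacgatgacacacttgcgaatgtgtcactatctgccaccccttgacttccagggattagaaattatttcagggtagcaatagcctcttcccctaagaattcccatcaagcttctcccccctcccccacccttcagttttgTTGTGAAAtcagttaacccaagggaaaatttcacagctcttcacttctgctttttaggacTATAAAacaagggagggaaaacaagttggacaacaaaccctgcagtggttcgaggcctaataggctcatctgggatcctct
Ptgs2, chr1:150099781-150100080, plus strand: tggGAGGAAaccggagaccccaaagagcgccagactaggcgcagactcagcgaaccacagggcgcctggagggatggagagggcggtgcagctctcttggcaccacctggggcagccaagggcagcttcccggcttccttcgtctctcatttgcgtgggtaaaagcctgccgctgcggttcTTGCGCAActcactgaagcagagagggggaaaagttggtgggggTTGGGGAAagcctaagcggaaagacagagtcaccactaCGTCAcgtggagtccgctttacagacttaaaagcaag
Pycard, chr7:127993818-127994117, minus strand: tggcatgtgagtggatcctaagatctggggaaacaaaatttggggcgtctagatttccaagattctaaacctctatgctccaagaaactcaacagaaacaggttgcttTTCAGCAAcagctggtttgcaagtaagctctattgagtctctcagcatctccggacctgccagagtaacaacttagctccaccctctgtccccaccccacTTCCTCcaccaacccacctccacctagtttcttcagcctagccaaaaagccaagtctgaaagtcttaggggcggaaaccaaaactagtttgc
Il18, chr9:50554450-50554749, plus strand: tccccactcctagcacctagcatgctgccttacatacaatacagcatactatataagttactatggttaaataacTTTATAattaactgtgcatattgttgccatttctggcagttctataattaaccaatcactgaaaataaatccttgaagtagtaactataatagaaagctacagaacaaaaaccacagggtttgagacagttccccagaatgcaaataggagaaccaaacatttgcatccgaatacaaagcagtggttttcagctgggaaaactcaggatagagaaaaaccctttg
The capitals in Il1b mark a C/EBP match (TTNNGNAA) 91 bases and a TATA box (TATAAA) 31 bases before the start. Ptgs2 carries a PU.1 core (GAGGAA) 247 bases before the start, C/EBP matches 69 and 25 bases before it and a CRE core (TGACG, here as its reverse complement) after it, Pycard a C/EBP match and a PU.1 core, and Il18 a TATA box match alone, 175 bases before its start.

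All 10 members matched a RefSeq promoter, in 13 windows. These include 2 windows of Il1rn that overlap and hold the same C/EBP matches. A member counts if any of its windows holds the motif, so member windows are given beside the share of all windows. A C/EBP match stood in 7 members (Il1b, Il1a, Il1rn, Nlrp3, Pycard, Tnf and Ptgs2). It stood in 9 of the 13 member windows and in 40.7% of all 32851 windows. The PU.1 core stood in 6 members, 6 of 13 member windows and 28.3% of all windows. The TATA box stood in 5 members, 5 of 13 member windows and 13.6% of all. The CRE core stood in Nlrp3 and Ptgs2, 2 of 13 member windows and 20.8% of all. An AP-1 site (TGANTCA) stood in Il1a and Il1rn, 2 of 13 member windows and 7.81% of all. A kappaB motif stood in Nlrp3 alone, 1 of 13 member windows and 5.80% of all. These matches are of letters in a window and were read on both strands, and some C/EBP and PU.1 matches overlap.

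Il1b differed between libraries in classical monocytes. DKO monocytes had 123 CPM (118 to 128), against 9.39 (6.85 to 12.6) in TWT monocytes, a ratio of 13.1 (9.75 to 18.0), and of 7.88 with every cell thinned to 2000 UMIs. TKO monocytes had 13.1 CPM, 0.107 times the DKO level (0.083 to 0.135), and 1.40 times the TWT level (0.95 to 2.08). After the same thinning, 13.3% (11.8 to 14.8) of DKO monocytes had an Il1b UMI, against 2.64% in TKO, 1.46% in IL-6 KO and 2.33% in TWT. B cells, which stand for free RNA here, gave 1.496% in DKO, 0.75% in TKO, 1.16% in IL-6 KO and 1.95% in TWT. The DKO share lay far above that of B cells, the TKO share (1.51 to 4.25) lay above that of its B cells (0.35 to 1.43) by less, and the intervals of IL-6 KO and TWT overlapped those of their B cells. Unthinned, the monocyte shares were 26.5%, 5.53%, 6.0% and 4.04% in DKO, TKO, IL-6 KO and TWT, with median depths of 9355, 7891, 7148 and 7918 UMIs, and B cells had median depths of 2691.5, 2511, 2872.5 and 2533 UMIs.

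The higher Il1b of DKO monocytes was also seen at matched depth, with a DKO to TWT ratio of 12.1 (8.50 to 17.9) in cells of 4000 to 8000 UMIs and 26.8 (14.9 to 53.8) in cells of 8000 or more. Transcripts high in neutrophils were present in the monocyte gates. Of these, S100a8 stood at 3.93% of its mature neutrophil level in DKO monocytes, 1.28% in TKO, 1.74% in IL-6 KO and 0.81% in TWT. S100a9 stood at 2.49%, 1.07%, 1.41% and 0.67% in the same order. Monocytes and B cells had 4395 and 1425 CPM of S100a8 in DKO, 1512 and 1058 in TKO, 2195 and 1120 in IL-6 KO, and 1121 and 1366 in TWT. Il1b stood at 34.1% of its mature neutrophil level in DKO monocytes, against 1.70%, 1.77% and 1.16% in TKO, IL-6 KO and TWT monocytes. The summed immature neutrophil markers were 1781 CPM in DKO monocytes and 476 to 802 CPM in the others, and the summed mature neutrophil markers 528 CPM in DKO and 444 to 850 CPM in the others, with none of the 6 markers of either list at 0. Macrophage markers summed to 224 CPM in DKO monocytes and to 28.7 in TKO, 6.69 in IL-6 KO and 21.1 in TWT, with 1 of the 5 markers at 0 in TKO and IL-6 KO. The part of these transcripts in the result was not tested.

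**Figure D2:**
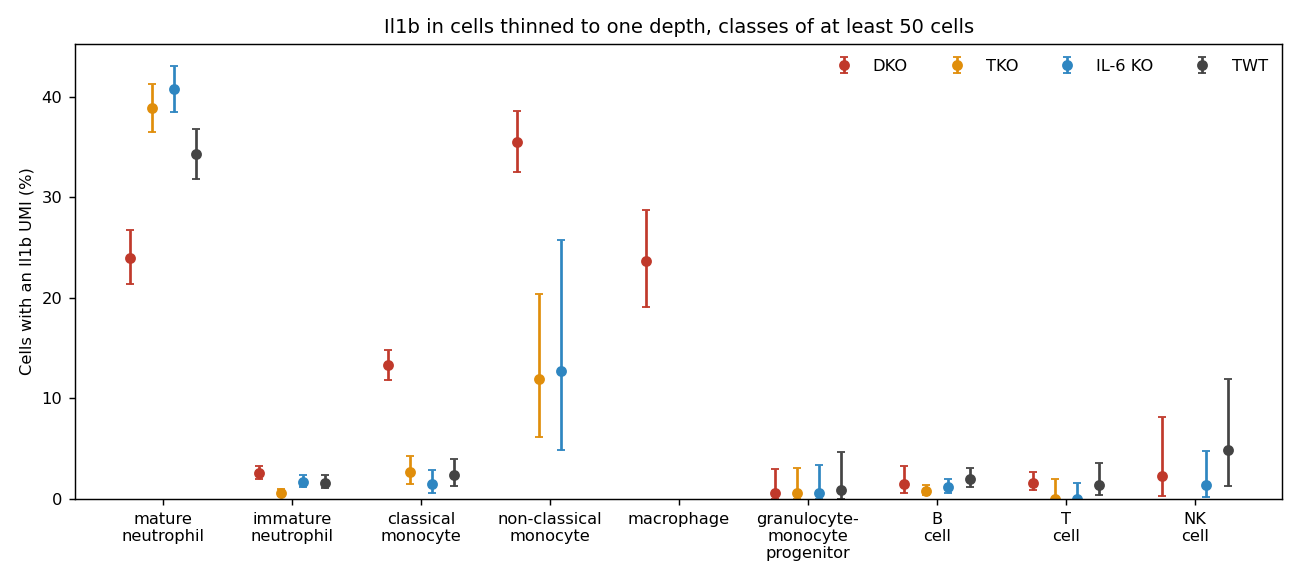
Share of cells with an Il1b UMI (y axis, %) in the main gated classes, where a library had at least 50 cells, after thinning to 2000 UMIs, with DKO, TKO, IL-6 KO and TWT side by side and exact 95% binomial intervals. Classical monocytes stand at 13.3% in DKO and at 1.46% to 2.64% in the other 3 libraries.

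Non-classical monocytes and macrophages of DKO carried Il1b as well. The 1076 DKO non-classical monocytes, patrolling cells gated by Ace, Cx3cr1, Treml4, Eno3 and Ear2, had 323 CPM (307 to 340), against 62.2 CPM (38.0 to 96.1) in 100 TKO cells and 84.3 CPM (46.1 to 141) in 52 IL-6 KO cells. The ratio of TKO to DKO was 0.193 (0.117 to 0.298), and TWT had only 32 such cells and gave no level. After thinning 35.5% of DKO non-classical monocytes had an Il1b UMI, against 23.9% of DKO mature neutrophils, an order opposite to that of their CPM. The 337 DKO macrophages had 238 CPM (218 to 260), and 21 TKO, 15 IL-6 KO and 24 TWT macrophages gave no level. The cells that held Il1b thus differed between libraries. Mature neutrophils held 25.8% (24.8 to 26.7) of all Il1b UMIs in DKO, against 93.4% in TKO, 91.7% in IL-6 KO and 90.6% in TWT. In DKO classical monocytes held 30.6%, non-classical monocytes 19.7%, immature neutrophils 9.0% and macrophages 6.4%, against 1.2%, 0.4%, 2.2% and 0.3% in TKO. Gated cells differed in number as well, with mature neutrophils at 10.7% of kept cells in DKO, 27.7% in TKO, 30.9% in IL-6 KO and 28.2% in TWT.

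**Figure D3:**
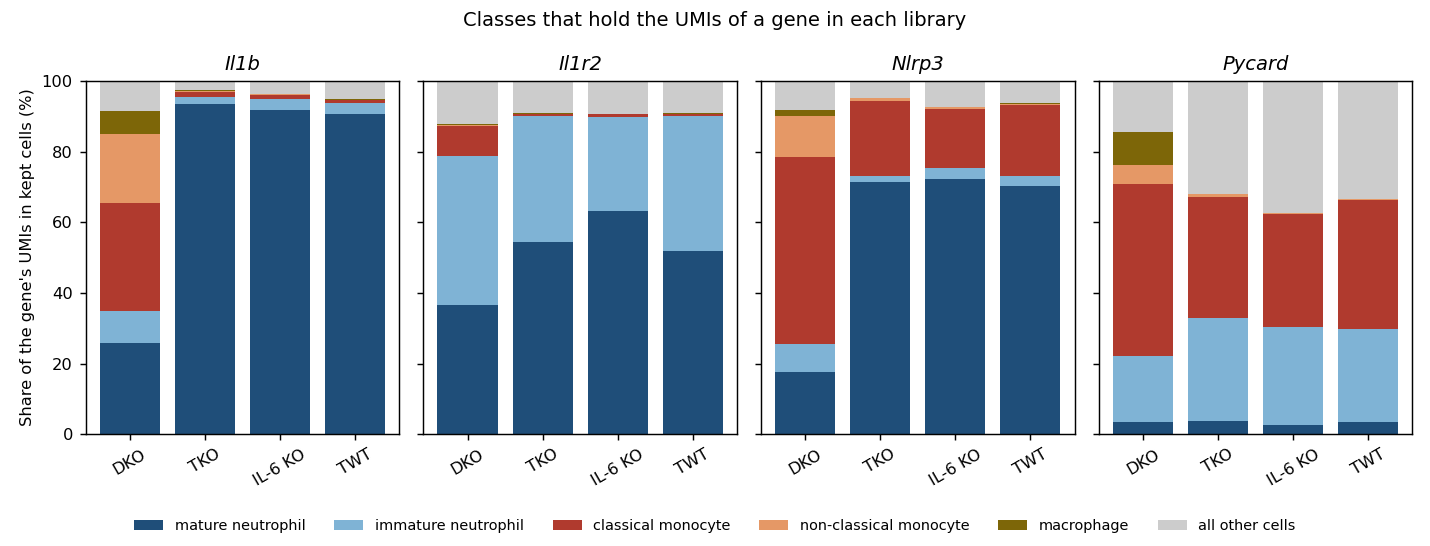
Stacked bars give the share of the UMIs of Il1b, Il1r2, Nlrp3 and Pycard (y axis, %) that lay in each gated class, per library (DKO, TKO, IL-6 KO, TWT), with other cells in grey. For Il1b mature neutrophils held 25.8% in DKO and 90.6% to 93.4% in the other libraries, with the rest of DKO mostly in classical and non-classical monocytes.

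Of the other members in monocytes, 3 lay close in DKO and TWT. Pycard had 633 CPM in DKO and 549 in TWT monocytes, a ratio of 1.15, Casp1 57.8 and 60.1 CPM, a ratio of 0.962, and Nlrp3 30.2 and 33.6 CPM, a ratio of 0.898. Il1r2, at 22.5 CPM in DKO and 1.67 in TWT monocytes, had a ratio of 13.5 (6.78 to 31.4) but stayed under the 50 CPM that counted as measured. B cells had 7.59 CPM of Il1r2 in DKO and 2.76 in TWT. Il1rn had a ratio of 3.90 (1.73 to 10.9) from 97 DKO and 6 TWT UMIs. Its level in DKO monocytes, 4.88 CPM, was close to 4.90 in IL-6 KO and 6.56 in TKO, and TWT alone was low at 1.25 CPM. The rule for a change was 2-fold, where a gene reached 50 CPM in 1 or both libraries and 30 UMIs over the pair. Il1b was the 1 higher member of the 3 measured in DKO against TWT monocytes, where 4.08% of 3183 genes were higher and 9.8% lower. For TKO against DKO monocytes Il1b was the 1 lower member of 3, where 9.27% of genes were higher and 4.54% lower. None of the 2 measured members passed for TKO or for IL-6 KO against TWT monocytes, where 0.483% and 0.478% of genes passed in either direction.

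In mature neutrophils 6 members were measured in DKO against TWT, and all 6 were past 2-fold. Il1r2 (ratio 2.55, 2.34 to 2.77) and Pycard (3.80, 3.29 to 4.40) were higher in DKO, and Il1b (0.446, 0.423 to 0.470), Il1rn (0.221, 0.179 to 0.271), Nlrp3 (0.376, 0.318 to 0.443) and Ptgs2 (0.018, 0.009 to 0.032) were lower, where 7.01% and 8.65% of 2197 genes were higher and lower. For TKO against DKO, Il1b (2.14), Il1rn (4.70) and Nlrp3 (2.54) were higher and Il1r2 (0.451) and Pycard (0.324) lower among 5 measured, where 9.94% and 5.9% of 2203 genes were. Ptgs2, at 49.1 CPM in TKO and 1.93 in DKO, had a ratio of 25.5 (14.1 to 51.6) and fell just under the measured level. TKO against TWT had 1 of 5 past the rule, Ptgs2 at 0.45 (0.39 to 0.51), where 1.04% of genes passed, and IL-6 KO against TWT had 0 of 5, where 0.754% did. These comparisons share the DKO and TWT libraries.

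The Il1b ratio of mature neutrophils depended on which cells were compared. DKO mature neutrophils were deeper, with a median of 5345 UMIs against 2967 in TKO, 2873.5 in IL-6 KO and 2818 in TWT, and Il1b was concentrated in shallow cells of every library. Cells under 2000 UMIs had 1761 CPM in DKO, 3181 in TKO, 3302 in IL-6 KO and 3441 in TWT, and made up 3.01% of the class in DKO against 22.5%, 22.5% and 24.2%. Cells of 2000 to 4000 UMIs had 1548 CPM in DKO, 871 in TKO, 821 in IL-6 KO and 741 in TWT, which turned the DKO to TWT ratio round to 2.09 (1.94 to 2.25). At 4000 to 8000 UMIs the ratio was 1.29 (1.13 to 1.48), from 175 CPM in DKO and 135 CPM in TWT, and at 8000 or more 0.69 (0.48 to 1.03) from 106 and 19 cells. So the lower Il1b of DKO held over the whole class and in the shallowest cells, and its direction turned in between.

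**Figure D4:**
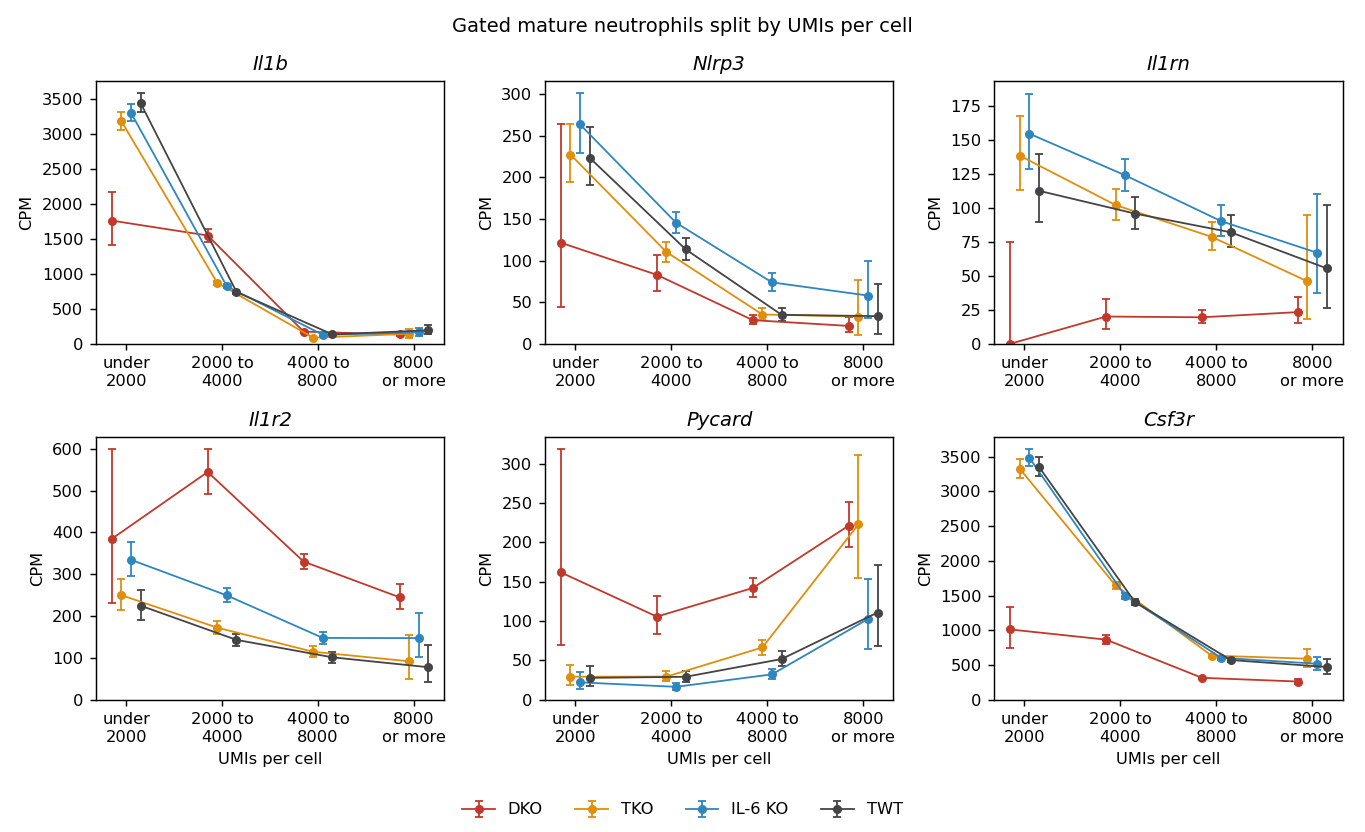
Panels give CPM (y axes differ) of 5 members and the marker Csf3r in mature neutrophils split into 4 bins by UMIs per cell (x axis), with a line per library and exact 95% Poisson intervals. Il1b is highest in the shallowest cells of every library, and DKO lies below TWT there (1761 and 3441 CPM) but above it in the 2000 to 4000 bin (1548 and 741 CPM).

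The other members past 2-fold kept their direction in the depth bins that gave a ratio, though Nlrp3 lost its size. Il1r2 was higher in DKO than in TWT in all 4 bins (ratios 1.71, 3.81, 3.26 and 3.15, shallow to deep), as was Pycard (5.83, 3.63, 2.75 and 1.997). Il1rn was lower at 0.21 (0.12 to 0.35) in the 2000 to 4000 bin, 0.24 (0.18 to 0.31) in the next and 0.42 (0.20 to 0.98) in the deepest, and Ptgs2 was lower at 0.08 in the middle bins. Nlrp3 was 0.54, 0.73, 0.82 and 0.65, with no bin past 2-fold. Split instead by the lead of the mature over the immature marker score, cells with a lead over 0.4 had 797 Il1b CPM in DKO, 1089 in TKO, 1238 in IL-6 KO and 1206 in TWT, and made up 22.1% of the class in DKO against 58.6%, 54.1% and 51.8%. Csf3r, a mature marker, had 383 CPM in DKO against 1372, 1352 and 1283 CPM, and immature neutrophil markers summed to 30756 CPM in DKO against 14531 to 15704 CPM, while the summed mature markers were 53395 CPM in DKO against 46336 to 52711 CPM. Monocyte markers summed to 242 CPM in DKO mature neutrophils against 76 to 102 CPM, and their part was not tested.

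In immature neutrophils few members reached the measured level. Il1r2, at 76.6 CPM in DKO and 34.0 in TWT (ratio 2.25), was the 1 higher member of the 2 measured, where 3.89% of 2106 genes were higher and 3.32% lower. Il1b at 24.5 and 9.95 CPM had a ratio of 2.47 and Il1rn at 5.13 and 15.4 CPM a ratio of 0.333, both under 50 CPM. Il1r2 was thus over 2-fold higher in DKO than in TWT in mature neutrophils, immature neutrophils and monocytes, the only member to be so in all 3 classes, though under 50 CPM in the last. The monocyte ratio rested on 8 UMIs in TWT, where 1.67 CPM lay below the 2.76 CPM of TWT B cells. DKO monocytes had 22.5 CPM, against 7.59 in DKO B cells.

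**Figure D5:**
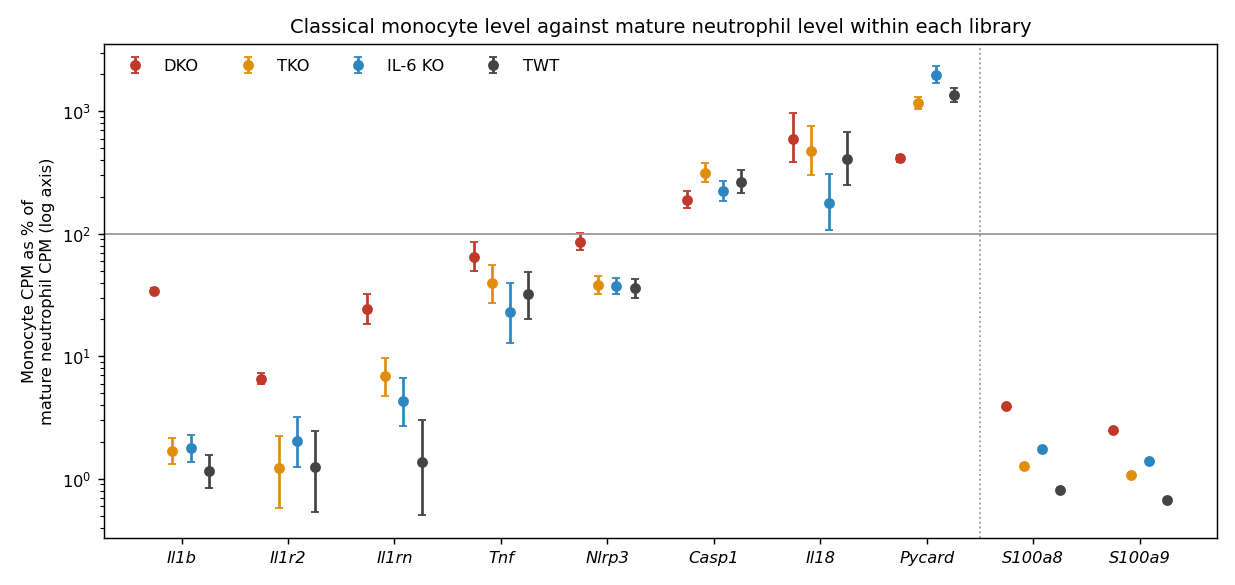
The CPM of classical monocytes as a percentage of that of mature neutrophils in the same library (log axis) for 8 members and, right of the dotted line, S100a8 and S100a9, which are high in neutrophils, with 1 point per library and 95% intervals. Il1b stands at 34.1% in DKO and 1.16% to 1.77% in the other libraries, and Pycard lies above 100% in all 4.

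In mature neutrophils, Nlrp3, Il1r2 and Ptgs2 were detected more often in cells with an Il1b UMI. Among mature neutrophils thinned to 2000 UMIs, Nlrp3 was detected in 16.3% of cells with and 5.14% without Il1b in DKO, 24.1% and 9.37% in TKO, 28.5% and 16.9% in IL-6 KO, and 21.5% and 12.4% in TWT. Il1r2 was detected in 62.8% and 40.7% in DKO, 31.9% and 18.2% in TKO, 39.0% and 28.8% in IL-6 KO, and 27.9% and 20.4% in TWT. Pycard ran the other way, at 16.7% with and 25.0% without Il1b in DKO and 3.41% and 7.76% in TWT. In DKO monocytes Pycard was in 45.3% of cells with Il1b and 62.8% of those without, Il1r2 in 1.09% and 3.41%, Nlrp3 in 6.57% and 4.47%, and Ptgs2 in none. Cells of 1 library are not replicates, so these shares are descriptions. The order in mature neutrophils was the same in 4 of 4 libraries for Nlrp3, Il1r2, Ptgs2 and Pycard. It was also the same for Il1rn, higher with Il1b, and Casp1, lower with Il1b, with overlapping intervals in each library. Ptgs2 in DKO rested on 3 positive cells with and 1 without Il1b. Pycard in IL-6 KO was 3.56% with and 4.15% without Il1b, with overlapping intervals.

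Genes with a profile most like a member were found over 44 class and library sums among 6923 genes, by Pearson's r of log2(CPM + 1). The sums share libraries, so r is a description. Nearest to Il1b were Cd300ld (0.851), Dusp1 (0.851), the neutrophil chemokine gene Cxcl2 (0.833), Fos (0.825) and Cdc42ep2 (0.821). Among the genes nearest to Nlrp3 were the chemokine gene Ccl6 (0.935), Preb (0.874), Cd300lb (0.872) and Atp6v1b2 (0.851). Il18 was nearest to Plxnb2 (0.848), the interferon regulatory factor gene Irf5 (0.810), Plekhm3 (0.805), Plekho1 (0.795) and Myof (0.790). None is a gate marker.

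Dusp1 and Fos are also among 14 immediate-early and heat shock genes listed as signs of handling. Of the 12 tested, 12 were higher in mature than in immature neutrophils, with a median of 3.20 on the log2 scale against −0.09 for all genes. In neutrophils against monocytes 8 of 14 were higher and 3 lower (Dusp1 2.96, Egr1 2.85, Atf3 −2.98 and Hspa1a −2.83). DKO against TWT monocytes had 5 higher of 9 measured, with Ier3 at a ratio of 6.90 and Jun at 4.79, and mature neutrophils had Jun higher at 6.86 and Fos and Egr1 lower at 0.422 and 0.463. Over all genes, 17.5% were higher in mature than in immature neutrophils, and 18.2% were higher and 21.6% lower in neutrophils than in monocytes. In DKO against TWT 4.08% were higher in monocytes, and 7.01% were higher and 8.65% lower in mature neutrophils. Most handling genes moved with Il1b in the class comparisons, and 5 of 9 did in monocytes. In neutrophils against monocytes 3 went the other way, as did Jun in mature neutrophils taken whole. The part of this list in the result was not tested.

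Other genes of these pathways were read from lists, to be set beside 18.2% higher and 21.6% lower of all genes in neutrophils against monocytes. Among IL-1 family genes besides the members, 6 of 8 tested were higher and 1 lower in neutrophils than in monocytes, with a median of 3.13 against 0.00 for all genes. Il18rap, a chain of the interleukin-18 receptor, was higher by 5.31 (SE 0.45), Il1f9, an interleukin-36 gene, by 5.25 (SE 0.50), and Sigirr, an inhibitory receptor, had −1.27 (SE 0.18). Of 20 inflammasome genes besides the members 2 were higher and 8 lower, with a median of −0.73, among them the sensor gene Nlrp12 at 6.28, the pore gene Gsdme at 2.98, the ATP receptor gene P2rx7 at −4.54 and the channel gene Panx1 at −2.80. Nlrp12 was also lower in DKO than in TWT mature neutrophils, at 33.3 and 101 CPM, and Nek7, a partner of NLRP3, lower in DKO than in TWT monocytes, at 37.1 and 76.5 CPM.

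Prostaglandin and leukotriene genes had 4 higher and 3 lower of 13 in neutrophils against monocytes, where 18.2% and 21.6% of all genes were. Alox5 (4.40) and Lta4h (3.33), which make leukotrienes, were higher, and Hpgd (−4.70), which degrades prostaglandins, and Tbxas1 (−1.37), the thromboxane synthase gene, lower. Alox5ap, the partner of Alox5, had 3458 CPM in DKO and 1330 CPM in TWT mature neutrophils, a ratio of 2.60, while Ptgs2 had 0.018. Hpgd in monocytes had 21.1 CPM in DKO and 89.3 CPM in TWT. Of 8 TNF genes 2 were higher (Ltb 4.52 and Rhbdf2 1.24) and 1 lower (Tnfrsf1b, a TNF receptor, −1.94), against the same shares of all genes.

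The DKO and TKO mice lack miR-146a, so its sequence and sites are shown. The mature mmu-miR-146a-5p (RefSeq, GRCm38.p6 chr11:43374435-43374456, minus strand) is printed with its seed, bases 2 to 8, in capitals, and 1 site of Irak1 (GRCm38 chrX:74015393-74015415, minus strand) and of Traf6 (chr2:101697944-101697966, plus strand) with the seed match in capitals.
mmu-miR-146a-5p: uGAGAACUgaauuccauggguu
Irak1: agactcagaggtcaaAGTTCTCa
Traf6: accgctctggtgttgAGTTCTCa
The seed match AGTTCTC stood in the annotated 3′ UTR of 0 of the 10 members and of 2453 of 20896 genes (11.7%). It stood in 5 of 19 interleukin-1 and Toll receptor signaling genes (Irak1, Irak2, Traf6, Chuk and Tollip). Irak1, the kinase below the interleukin-1 receptor, had 16.5 CPM in DKO, 22.5 in TKO, 16.6 in IL-6 KO and 25.7 in TWT mature neutrophils, and 42.3, 67.3, 64.0 and 70.3 CPM in monocytes. Traf6, the ligase after it, had 9.90 CPM in DKO, 9.93 in TKO, 13.4 in IL-6 KO and 16.1 in TWT monocytes.

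Within that signaling list 3 of 19 genes were higher, among them Nfkbiz (1.62) and Tab3 (1.18), and Ikbkb was lower (−1.56) in neutrophils than in monocytes. Over all genes tested 18.2% were higher and 21.6% lower, so the list did not stand above all genes in higher calls in this comparison. In mature neutrophils against monocytes 9 of 19 were higher and 1 lower, where 25.3% and 34.5% of all genes were. In mature against immature neutrophils 5 of 19 were higher and 0 lower, where 17.5% and 24.9% of all genes were. Nfkbia, the NF-κB inhibitor gene that NF-κB itself induces, was the 1 gene past 2-fold between DKO and TWT among the 8 measured in mature neutrophils, and the 1 among the 7 measured in monocytes. Mature neutrophils had 469 CPM in DKO, 197 in TKO, 197 in IL-6 KO and 181 in TWT. Monocytes had 534, 156, 179 and 138 CPM in the same order, a DKO to TWT ratio of 3.87. Over all genes measured in DKO against TWT, 7.01% were higher and 8.65% lower in mature neutrophils, and 4.08% and 9.8% in monocytes.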

How the data were processed

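The authors counted UMIs with Cell Ranger 3.0.2 on mm10 and deposited those counts, not normalized, for the barcodes called as cells. The members and gene lists were chosen with earlier results of these data known. The study's own filter was applied, between 500 and 4000 genes detected and no more than 15% of UMIs from mitochondrial genes. Cells were gated by a score over 96 marker genes of 17 classes (minimum 0.25, lead 0.05), with none of the members among them. Counts were summed per class and library. Class differences were tested with edgeR 4.0.16 in R 4.3.3 (quasi-likelihood, trimmed-mean scaling, library as a block, Benjamini-Hochberg adjustment over all genes tested), and called at an adjusted p under 0.05 and at least 2-fold. The library block pairs the classes of a library, which come from the same cells' suspension.

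Each genotype has 1 library, so no test between genotypes was made. Ratios of CPM have exact conditional intervals, sums exact Poisson intervals and shares exact Clopper-Pearson intervals at 95%, all for counting error only. Shares used cells thinned to 2000 UMIs. A level needed at least 50 cells. Python 3.11.15, numpy 2.4.6, scipy 1.17.1, pandas 2.3.3, scanpy 1.11.5 (Scrublet doublets) and matplotlib 3.10.9 were used, and the tests were checked on simulated data. Named genes are the members, up to 2 called genes in each direction per list, the 5 genes most like Il1b, Il18 and Nlrp3 (1 of them is not reported here) and marker genes. Alternatives were DESeq2 1.42.0, library totals, no filter, no block, each library left out, a stricter gate, Leiden clusters, doublets removed, at least 200 genes as the only filter, thinned counts, free RNA subtracted and CPM without genes above 1% of a class's UMIs. After the data were seen, mature neutrophils with a large score lead, mature neutrophils of 2000 to 4000 UMIs and monocytes of 8000 UMIs or more were added. Il1b, Il1r2 and Il18 overlap genes on the other strand.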

Additional observations from a re-analysis of the deposited data

Results flagged for a closer look

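Some members differed from TWT in opposite directions in different classes of the DKO library, which was not tested with 1 library per genotype. The DKO to TWT ratio of Il1b was 0.446 in mature neutrophils, 2.47 in immature neutrophils and 13.1 in classical monocytes. The value in mature neutrophils was 0.898 when thinned, 2.09 in cells of 2000 to 4000 UMIs and 1.29 in those of 4000 to 8000, so the opposite direction did not hold in those bins. For Il1rn it was 0.221 in mature neutrophils, 0.333 in immature neutrophils and 3.90 in monocytes, the last from 6 TWT UMIs. In monocytes TWT stood apart rather than DKO, with 1.25 CPM of Il1rn in TWT against 4.88 in DKO, 6.56 in TKO and 4.90 in IL-6 KO. TWT B cells had 0.92 CPM. For Nlrp3 it was 0.376 in mature and 2.23 in immature neutrophils. Immature neutrophils had at most 3.04 CPM of Nlrp3, in DKO, and B cells had 0 CPM in DKO, 0.90 in TKO and 1.53 in TWT. In mature neutrophils no depth bin was past 2-fold for Nlrp3 in DKO against TWT. The TKO to DKO ratio of Il1b was 2.14 in mature neutrophils, 0.239 in immature neutrophils and 0.107 in monocytes, and that of Nlrp3 was 2.54 in mature and 0.231 in immature neutrophils. The value of Il1b in mature neutrophils was 1.21 when thinned and 0.563 in cells of 2000 to 4000 UMIs, where it lay on the same side as in monocytes.

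Barcodes outside the filter held some members above and others below their level in the same barcodes of TWT. Those with more than 4000 detected genes had, in DKO, 47.8 CPM of Il1b, 37.1 of Il1r2, 12.7 of Nlrp3, 521 of Pycard, 6.34 of Il18 and 7.79 of Tnf, against 3.56, 3.10, 4.49, 215, 1.14 and 2.27 in TWT. Those with fewer than 500 genes had 208 CPM of Il1b and 113 of Pycard in DKO, against 101 and 11.6 in TWT. Barcodes over 15% mitochondrial UMIs had 162 CPM of Pycard in DKO and 85.7 in TKO, against 28.5 in TWT, while Il1b had 125 CPM in DKO and 147 in TWT there. Ptgs2 had no UMI in DKO barcodes of fewer than 500 genes or over 15% mitochondrial UMIs, against 23.9 and 23.3 CPM in TWT.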

How the results depend on the processing

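Of 349 alternative values of the members' class differences, 329 kept their direction and call, 12 gained a call, 8 lost it and 0 reversed. With library totals only, 1010 genes were higher and 4983 lower in neutrophils against monocytes, and 1075 higher and 5315 lower in mature neutrophils against monocytes. Members called lower in mature neutrophils against monocytes were 2 with no library block, 3 with library totals, and 2 with no filter, thinned counts or Leiden clusters, and 1 to 2 with a library left out. Against immature neutrophils they were 0 with no block, DESeq2 or Leiden clusters, and 0 to 1 with a library left out. The DKO to TWT ratio of Il1b in mature neutrophils was 0.898 thinned, 0.661 with a large score lead and 2.09 at 2000 to 4000 UMIs, where it reversed, and that of TKO to DKO 1.21, 1.37 and 0.563, the last reversed. At 2000 to 4000 UMIs 2 members were lower in DKO than in TWT, and 1 was higher in TKO than in DKO, as when thinned. With free RNA subtracted, 2 members were higher in DKO than in TWT immature neutrophils. The DKO to TWT ratio of Il1b in monocytes was 7.88 thinned, 75.6 with free RNA subtracted and 26.8 at 8000 UMIs or more, and that of TKO to DKO 0.082 with doublets removed. Shares of cells with Il1b when not thinned were 31.5%, 53.2%, 56.9% and 50.4% in mature neutrophils of DKO, TKO, IL-6 KO and TWT, and 26.5%, 5.53%, 6.0% and 4.04% in monocytes, and with free RNA subtracted 0.303% in IL-6 KO and 0.388% in TWT monocytes. CPM without genes above 1% of UMIs has no bearing on shares. Over all alternative values of the members' ratios and shares, these included, 46 of 273 ratios and 143 of 600 shares moved and 2 ratios reversed. The cause was not tested. A genotype's replicate spread is unknown with 1 library each, and levels under about 1 CPM rest on few UMIs.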
